A study of Mus musculus with 6 samples.

Results

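Collagen genes were followed in branchial arch 1, the embryonic tissue of the jaws, of mouse embryos at embryonic day 11.5. They were chosen by name, as every gene whose whole symbol reads Col, digits, a, digits, and 42 of the 18194 genes measured qualified, read by 82 of the 34958 probe sets with a single gene symbol. Affymetrix arrays were hybridised with RNA from 3 biological replicates of Ezh2lox/lox embryos (labelled control) and 3 of Wnt1Cre Ezh2lox/lox embryos (labelled mutant). Per the labels 1 arch was taken from each embryo, and whether an array held more than 1 embryo is not stated. All embryos carried Ezh2 with lox sites; its protein is the enzyme of Polycomb repressive complex 2, which methylates histone H3 and silences genes. The labelled-mutant embryos also carried Cre under the Wnt1 promoter, which is active in neural crest, so that epithelium, endothelium, muscle and blood of the arch lie outside its main lineage. Values are log2 signals, every difference is labelled mutant minus labelled control, errors beside means are SD with n = 3 arrays, and a gene was called where limma's p, Benjamini-Hochberg adjusted over all 18194 genes, was under the threshold of 0.05. The comparison asks which collagen transcripts differ when Ezh2 is deleted in the crest-derived cells of the arch.

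Collagens are secreted matrix proteins whose chains wind around each other into a rope-like helix. Fibrillar collagens assemble into the cables of mesenchyme, cartilage and bone. Network collagens form sheets, above all in basement membranes. FACIT collagens sit on the surface of fibrils, type VI collagen builds beaded microfilaments around cells, and a mixed group spans membranes or anchors epithelium. In the jaw arch the crest-derived mesenchyme lays down type I, III and V fibrils, while cells on the way to cartilage turn on type II, IX and XI.

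The targeted gene did not tell the labels apart. Ezh2 read from 11.52 to 11.80 on the labelled-control and from 11.65 to 11.66 on the labelled-mutant arrays (difference 0.03, SE 0.09), and whether its probe set covers the deleted part was not determined. Polycomb repressive complex 2 is known to keep Hox genes silent in this arch. Hoxa9 read from 10.86 to 11.57 on the labelled-control and from 3.82 to 4.51 on the labelled-mutant arrays, so that its high arrays were those labelled control. Whether the labels were exchanged was not tested. With exchanged labels each difference given here would have the opposite sign. Xist read from 5.45 to 5.75 and from 12.92 to 13.10 in the same order, so that genotype label and sex of the embryo cannot be told apart. Of 10 markers of arch mesenchyme 5 were called higher and 1 lower, where 1.23% of all genes were called higher and 4.30% lower. Prrx1, Twist1 and Hand2 read between 11.27 and 12.59 in group means, while Alx4 read 5.02 and 5.06. In bulk tissue fewer cells of a type and less RNA per cell cannot be told apart. Within the labelled mutants array 1 stood nearest to the labelled controls for 12 of the 14 collagen genes called lower, and for 504 of all 783 genes called lower. Within the labelled controls array 3 read highest for 11 of the 14 and for 353 of the 783.

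In the labelled-mutant arches the main chains of type I, III, V and VI collagen and the FACIT genes Col12a1, Col14a1 and Col16a1 were lower, the cartilage gene Col2a1 was higher, and the basement membrane genes Col4a1 and Col4a2 were not called. Of the 42 genes 14 were called lower, 1 was called higher and 27 were not called. Over all genes tested 5.53% were called, 4.30% lower and 1.23% higher, against 35.7% called and 33.3% lower among the collagen genes. The median difference of the collagen genes was -0.12, and that of all genes 0.02. The labelled-mutant arrays lay wholly below the labelled controls for 16 collagen genes, wholly above for 5, and overlapped for 21; over all genes 11.9% lay below and 13.0% above. Of the called genes, 4 were at least 2-fold lower (Col14a1, Col6a3, Col6a2 and Col8a1), where 1.20% of all genes were called and at least that much lower. No filter on dim genes was used, and Col4a4 and Col6a5 read under the array's 25th percentile of 4.33 on every array. For the 14 falls and the rise the arrays of the labels did not overlap, so that leaving out 1 array could not change a sign. The number of calls was 4 without labelled-mutant array 3 and 5 without labelled-mutant array 2. It was 12 without labelled-control array 3 or labelled-mutant array 1. It was 9 without labelled-control array 1 and 10 without labelled-control array 2. Col3a1, Col14a1 and Col25a1 were called under all 14 alternatives tried, but as the mean of all probe sets the difference was -0.60 for Col14a1 in place of -1.56 and -0.30 for Col25a1 in place of -0.79.

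**Figure D1:**
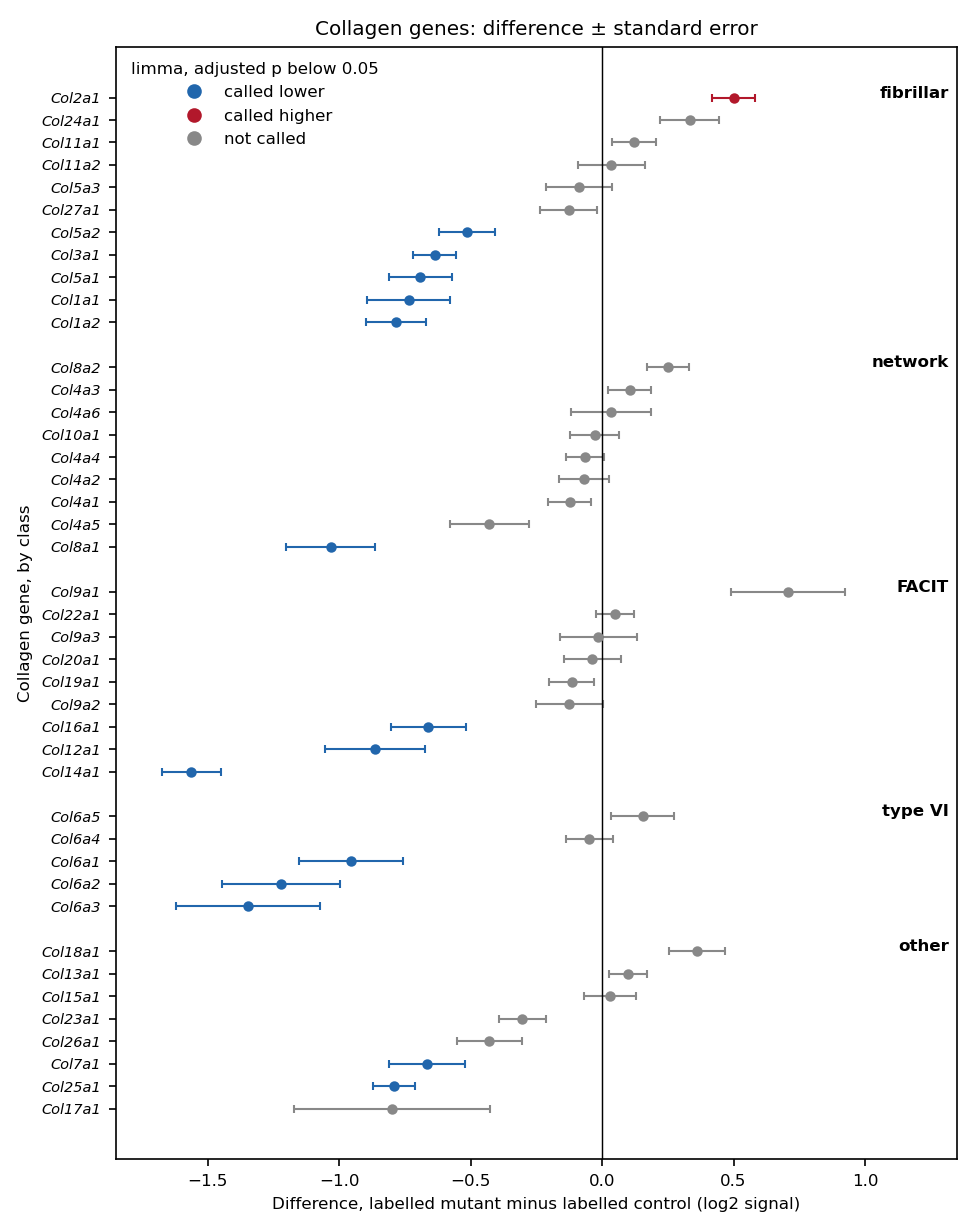
Difference between labelled mutant and labelled control (log2 signal, horizontal) for each of the 42 collagen genes (vertical, by class), with bars of 1 moderated standard error and colours for limma's call. The 14 genes called lower lie between -1.56 and -0.51, and Col2a1 at 0.50 is the gene called higher.

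The upstream sequences shown are those of the called fibril genes with the brightest signals, of the called chains that share a protein in type VI collagen, and of the pair of type VIII chains whose differences had opposite signs. They are the 150 bases before the annotated start from RefSeq (GRCm38.p6), written 5′ to 3′ on the gene's strand. Capitals mark letters of a TATA box (TATAAA), of a CCAAT box, or of the core of a GC box (GGGCGG), on either strand. On the opposite strand the last of these appears as CCGCCC. Col1a2 and Col3a1 encode chains of type I and III fibrils, Col6a1, Col6a2 and Col6a3 the chains of type VI microfilaments, and Col8a1 and Col8a2 those of the type VIII network.
Col1a2: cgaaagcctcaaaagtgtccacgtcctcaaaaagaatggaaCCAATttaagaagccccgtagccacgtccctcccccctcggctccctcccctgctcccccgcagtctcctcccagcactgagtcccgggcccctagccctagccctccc
Col3a1: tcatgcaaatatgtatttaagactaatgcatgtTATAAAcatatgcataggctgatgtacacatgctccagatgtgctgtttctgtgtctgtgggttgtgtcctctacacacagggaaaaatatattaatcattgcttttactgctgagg
Col6a1: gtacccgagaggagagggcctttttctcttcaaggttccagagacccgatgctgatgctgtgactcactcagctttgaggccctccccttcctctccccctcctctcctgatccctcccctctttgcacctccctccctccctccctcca
Col6a2: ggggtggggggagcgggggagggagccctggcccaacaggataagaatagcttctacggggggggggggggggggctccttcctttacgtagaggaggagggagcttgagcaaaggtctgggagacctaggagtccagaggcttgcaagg
Col6a3: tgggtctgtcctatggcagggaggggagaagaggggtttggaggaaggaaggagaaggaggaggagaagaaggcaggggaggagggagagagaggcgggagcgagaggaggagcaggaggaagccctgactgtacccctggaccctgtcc
Col8a1: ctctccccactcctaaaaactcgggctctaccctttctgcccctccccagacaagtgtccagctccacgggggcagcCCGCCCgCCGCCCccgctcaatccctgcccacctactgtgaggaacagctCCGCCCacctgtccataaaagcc
Col8a2: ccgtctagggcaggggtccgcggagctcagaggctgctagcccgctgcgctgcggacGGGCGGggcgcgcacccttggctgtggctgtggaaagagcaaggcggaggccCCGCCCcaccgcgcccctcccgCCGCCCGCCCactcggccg
These windows lie at chr6:4505468-4505617 (plus strand) for Col1a2, chr1:45311388-45311537 (plus strand) for Col3a1, chr10:76726045-76726194 (minus strand) for Col6a1, chr10:76623631-76623780 (minus strand) for Col6a2, chr1:90843972-90844121 (minus strand) for Col6a3, chr16:57754738-57754887 (minus strand) for Col8a1 and chr4:126286644-126286793 (plus strand) for Col8a2. Col1a2 held 1 CCAAT, Col3a1 held 1 TATAAA, Col8a1 held 3 copies of GGGCGG and Col8a2 held 4, of which a pair overlap. In the 3 type VI windows no copy of these letters was found.

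Across the wider window of 250 bases before the start, 33 of the 42 collagen genes matched a promoter of the table. For each collagen gene the 1 promoter nearest the annotated gene start was taken, while all 32851 promoters were counted without keeping 1 per gene. The shares and CG counts given here are therefore over unlike sets. TATAAA was in 15.2% of the collagen promoters and in 12.4% of all 32851, CCAAT in 36.4% and 33.8%, and GGGCGG in 60.6% and 32.7%. Among the 10 matched genes called lower, 1 held TATAAA, 4 CCAAT and 7 GGGCGG. The number of CG dinucleotides had a median of 10 in the collagen promoters, 8.5 in those called lower and 6 in all promoters. It ran from 0 in Col3a1 to 28 in Col5a1 within the genes called lower, so that CG-poor and CG-rich promoters were both among them.

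The fibrillar class held falls of the mesenchymal fibril genes beside a rise of the cartilage gene. Of 11 members 5 were called lower, 1 higher and 5 were not called, with a median of -0.13. Over all genes 4.30% were called lower and 1.23% higher. Col1a2, a chain of type I collagen, read 13.32, 13.53 and 13.58 on the labelled-control arrays 1 to 3 and 12.90, 12.63 and 12.55 on the labelled-mutant arrays 1 to 3. It was lower by 1.72-fold (difference -0.78, SE 0.11; limma, Benjamini-Hochberg adjusted p = 0.00577), with a gap between the groups. Its partner chain Col1a1 read 9.13, 8.93 and 9.12 against 8.71, 8.08 and 8.19 (difference -0.74, SE 0.16; limma, Benjamini-Hochberg adjusted p = 0.0310), and labelled-mutant array 1 stood closest to the labelled controls. Col3a1, the chain of type III fibrils that mix with type I in soft tissue, read 13.42, 13.45 and 13.54 against 12.94, 12.76 and 12.80. It was lower by 1.55-fold (difference -0.64, SE 0.08; limma, Benjamini-Hochberg adjusted p = 0.00328), and its replicates were the tightest of the fibrillar genes called lower in the labelled controls.

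Type V collagen starts type I fibrils and sets their width. Its chain Col5a1 read 10.55, 10.30 and 10.41 in the labelled controls and 9.97, 9.54 and 9.67 in the labelled mutants (difference -0.69, SE 0.12; limma, Benjamini-Hochberg adjusted p = 0.0128). Col5a2 read 11.51, 11.39 and 11.79 against 11.08, 11 and 11.07 (difference -0.51, SE 0.11; limma, Benjamini-Hochberg adjusted p = 0.0289). The arrays of the labels did not overlap for either chain. The third chain Col5a3 read 4.94 ± 0.26 and 4.85 ± 0.04 and was not called. Of these genes Col1a1 was no longer called without labelled-control array 1 (limma adjusted p = 0.0838), 2 (0.0733) or 3 (0.0785) and without labelled-mutant array 2 (0.113) or 3 (0.135); Col5a1 without labelled-mutant array 2 (0.0542) or 3 (0.0679); and Col5a2 without labelled-control array 1 (0.0551) and labelled-mutant array 1 (0.0701), 2 (0.122) or 3 (0.107). Col1a2 and Col3a1 kept their calls without any single array.

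Col2a1, the main fibril chain of cartilage, was the collagen gene called higher. It read 9.64, 9.67 and 9.51 in the labelled controls and 10.03, 10.18 and 10.11 in the labelled mutants. All labelled mutants stood above all labelled controls (difference 0.50, SE 0.08; limma, Benjamini-Hochberg adjusted p = 0.00977). The other fibrillar genes of cartilage, Col11a1, Col11a2 and Col27a1, differed by 0.12, 0.04 and -0.13 and were not called, nor was Col24a1, a minor fibrillar chain, at 0.33. Without labelled-mutant array 2 or 3 Col2a1 missed the threshold (limma, Benjamini-Hochberg adjusted p = 0.0547 and 0.0548), and without labelled-control array 3 Col24a1 passed it (0.0498).

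**Figure D2:**
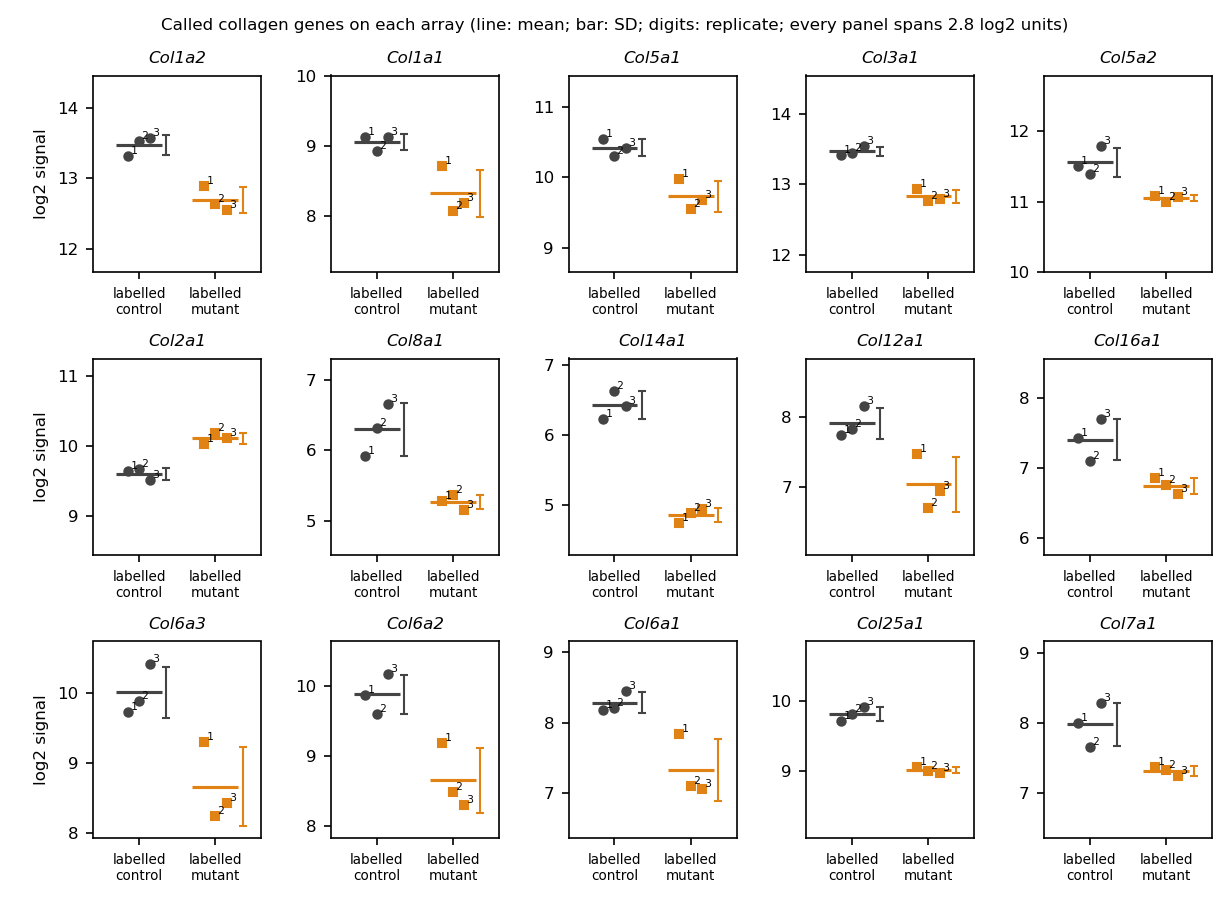
Log2 signal of the 15 called collagen genes on each array (points, with the replicate number), with the group mean as a line and the SD (n = 3) as a bar. For no gene shown did the groups overlap, and in Col1a1, Col12a1 and the type VI genes labelled-mutant array 1 lies nearest to the labelled controls.

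Type VI collagen, which surrounds muscle fibres, fibroblasts and many mesenchymal cells, was lower in each of its main chains. Of 5 members 3 were called, all lower, and the class median was -0.96. Col6a3 read 9.72, 9.89 and 10.41 in the labelled controls and 9.30, 8.25 and 8.43 in the labelled mutants. It was lower by 2.54-fold (difference -1.35, SE 0.27; limma, Benjamini-Hochberg adjusted p = 0.0252). Its groups did not overlap, and array 1 was the highest labelled mutant. Col6a2 read 9.87, 9.60 and 10.16 against 9.18, 8.49 and 8.30, which is 2.33-fold lower (difference -1.22, SE 0.23; limma, Benjamini-Hochberg adjusted p = 0.0164). Col6a1 read 8.18, 8.21 and 8.45 against 7.84, 7.09 and 7.05 (difference -0.96, SE 0.20; limma, Benjamini-Hochberg adjusted p = 0.0269). The 3 genes thus had the same array order in part, with array 1 the highest labelled mutant and array 3 the highest labelled control in each. The labelled-control mean exceeded labelled-mutant array 1 by 0.45 in Col6a1, 0.70 in Col6a2 and 0.71 in Col6a3, and exceeded the mean of labelled-mutant arrays 2 and 3 by 1.21, 1.48 and 1.67. Col6a4 and Col6a5, which resemble the Col6a3 chain, differed by -0.05 and 0.15 and were not called; their labelled-control means were 5.12 and 3.24.

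Each type VI call depended on single arrays. Col6a1 was no longer called without labelled-control array 1 (limma adjusted p = 0.0618), 2 (0.0889) or 3 (0.0740) and labelled-mutant array 2 (0.106) or 3 (0.108). Col6a2 missed the threshold without labelled-control array 1 (0.0554) and labelled-mutant array 2 (0.0719) or 3 (0.0652), and Col6a3 without labelled-control array 2 (0.0840) or 3 (0.0642), without labelled-mutant array 2 (0.0892) or 3 (0.107), and with trend and robust settings (0.0590), all limma with Benjamini-Hochberg adjustment. Their differences stayed between -1.67 for Col6a3 and -0.82 for Col6a1 under every such omission. Over all genes 4.30% were called lower. Markers of skeletal muscle, a tissue rich in type VI collagen, were called lower in 3 of 8 cases. Their mean log2 signal ran from 7.26 to 7.62 in the labelled controls and from 6.25 to 7.09 in the labelled mutants, with array 1 again the highest labelled mutant. Markers of tendon and dermal fibroblasts were called lower in 3 of 8 cases, Postn, Lum and Scx, with a mean signal from 6.92 to 7.23 against 6.36 to 6.77. Tnmd and Dpt of that list stayed under 4.33 on every array. The part of either cell type in these falls was not tested.

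**Figure D3:**
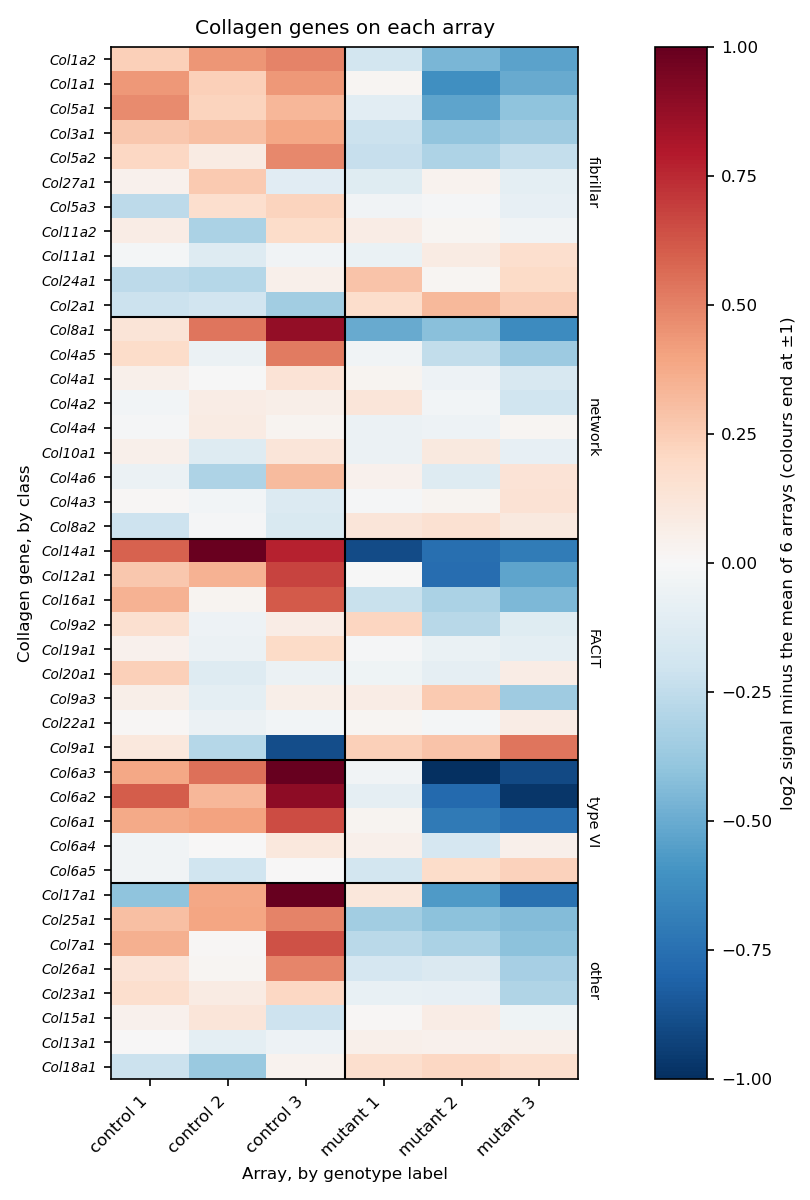
Log2 signal of each collagen gene (rows, by class) on each array (columns) minus the mean of that gene over the 6 arrays, as colour from blue (lower) to red (higher). The called type VI, type I and type V genes are red in the 3 labelled controls, and blue on labelled-mutant arrays 2 and 3; labelled-mutant array 1 is paler for most of them.

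Among FACIT collagens 3 of 9 were called, all lower, where 4.30% of all genes were called lower, and the median was -0.12. Col14a1, which coats fibrils in tendon, skin and other dense tissue, read 6.23, 6.62 and 6.41 in the labelled controls and 4.75, 4.88 and 4.94 in the labelled mutants. It was lower by 2.95-fold (difference -1.56, SE 0.11; limma, Benjamini-Hochberg adjusted p = 1.45e-04), with a wide gap between the groups. As the mean of its probe sets the difference was -0.60. Col12a1, a relative in periosteum and ligament, read 7.74, 7.83 and 8.15 against 7.47, 6.71 and 6.95 (difference -0.86, SE 0.19; limma, Benjamini-Hochberg adjusted p = 0.0349). Col16a1, which links fibrils to other matrix, read 7.42, 7.10 and 7.69 against 6.85, 6.75 and 6.62 (difference -0.66, SE 0.14; limma, Benjamini-Hochberg adjusted p = 0.0327). For both the gap between groups was narrow, and labelled-mutant array 1 stood closest to the controls.

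Col12a1 was no longer called without labelled-control array 1 (limma adjusted p = 0.0602), 2 (0.102) or 3 (0.0891) and labelled-mutant array 2 (0.113) or 3 (0.139), and its difference was -0.26 as the mean of its probe sets (0.162). Col16a1 missed the threshold without labelled-control array 1 (0.0806) or 3 (0.0544) and labelled-mutant array 1 (0.0556), 2 (0.109) or 3 (0.141), all limma with Benjamini-Hochberg adjustment. Col9a1, the cartilage FACIT that decorates type II fibrils, read 11.88, 11.49 and 10.89 in the labelled controls and 12.01, 12.06 and 12.31 in the labelled mutants. These groups did not overlap, but labelled-control array 3 lay under the other labelled controls, and the gene was not called (difference 0.71, SE 0.22; limma, Benjamini-Hochberg adjusted p = 0.119). Its dimmer probe set read 8.44, 8.18 and 8.10 against 8.85, 9.0 and 9.18 (difference 0.77), and it passed when every probe set was tested on its own (limma, Benjamini-Hochberg adjusted p = 0.0165). The gene passed as the mean of its probe sets (0.0390) and without labelled-control array 1 (0.0351). Its partner chains Col9a2 and Col9a3 differed by -0.12 and -0.01. Col19a1, Col20a1 and Col22a1 differed by -0.12, -0.04 and 0.05.

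Col2a1, the cartilage collagen that was called, stood beside some other genes of that lineage. Of 10 chondrocyte markers 3 were called, all higher: Sox5 (1.14), Sox6 (0.79) and Hapln1 (0.68). Over all genes 1.23% were called higher. The other 7 markers were not called: Matn4 and Comp differed by -0.19 and -0.01, and the rest lay above 0. Sox9, which with Sox5 and Sox6 drives Col2a1, read 7.35 ± 0.66 and 8.26 ± 0.16 and was not called (limma, Benjamini-Hochberg adjusted p = 0.115). The mean signal of the list ran from 5.59 to 5.68 in the labelled controls and from 5.98 to 6.08 in the labelled mutants. Matn1, a marker of mature cartilage, read 3.21 and 3.39 in group means, under the 25th percentile, and Col10a1, the collagen of hypertrophic cartilage, read 5.32 and 5.29. The part of more such cells in the rise of Col2a1 was not tested. Of 5 osteoblast markers measured none was called with limma, and none had an unadjusted p under 0.05. Over all genes 5.53% were called, and 3405 of 18194 had an unadjusted limma p under 0.05. Ibsp, Dmp1 and Phex lay under 4.33 on every array.

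Of 9 network collagens 1 was called (11.1%, against 5.53% of all genes), and the median was -0.06. Col4a1 and Col4a2 are the main chains of basement membranes. Col4a1 read 11.60, 11.55 and 11.69 in the labelled controls and 11.58, 11.50 and 11.39 in the labelled mutants, and Col4a2 read 10.22 ± 0.06 against 10.15 ± 0.16. Their differences of -0.12 and -0.07 had standard errors of 0.08 and 0.10 (limma, Benjamini-Hochberg adjusted p = 0.483 and 0.763), and the arrays of the labels overlapped. Of 8 endothelial markers none was called with limma, and none had an unadjusted p under 0.05. Over all genes 5.53% were called, and 3405 of 18194 had an unadjusted limma p under 0.05. The mean signal of the endothelial markers ran from 7.51 to 7.85 against 7.62 to 7.77. Col4a3 and Col4a4, typical of kidney and lung membranes, read between 4.10 and 4.41 on all arrays, near the low end. The X-linked Col4a5 and Col4a6 differed by -0.43 and 0.03 and were not called; sex and label coincide for these too.

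Type VIII collagen forms lattices under endothelium and around vessels. Its chain Col8a1 read 5.91, 6.32 and 6.66 in the labelled controls and 5.27, 5.36 and 5.15 in the labelled mutants. It was lower by 2.05-fold (difference -1.03, SE 0.17; limma, Benjamini-Hochberg adjusted p = 0.00980), without overlap. The other chain Col8a2 read 8.60, 8.79 and 8.65 against 8.93, 8.96 and 8.90, wholly above the controls but not called (difference 0.25, SE 0.08; limma, Benjamini-Hochberg adjusted p = 0.129). Without labelled-control array 2 or labelled-mutant array 3 Col8a1 missed the threshold (limma, Benjamini-Hochberg adjusted p = 0.0518 and 0.0505), and its difference was -0.32 as the mean of its probe sets (0.0655).

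In the mixed group 2 of 8 genes were called, both lower, where 4.30% of all genes were called lower. The median was -0.37. Col25a1, a membrane-spanning collagen known for roles in motor nerve growth to muscle, read 9.71, 9.80 and 9.91 in the labelled controls and 9.06, 9.0 and 8.98 in the labelled mutants. It was lower by 1.73-fold (difference -0.79, SE 0.08; limma, Benjamini-Hochberg adjusted p = 0.00103), with tight replicates. Col7a1, which anchors epithelium to the tissue beneath, read 8.0, 7.65 and 8.28 against 7.37, 7.33 and 7.24 (difference -0.67, SE 0.14; limma, Benjamini-Hochberg adjusted p = 0.0329). It was no longer called without labelled-control array 1 (limma adjusted p = 0.0819) and labelled-mutant array 1 (0.0700), 2 (0.108) or 3 (0.137). Of 6 neuronal and glial markers measured 4 were called lower, where 4.30% of all genes were. Their mean signal ran from 7.01 to 7.15 against 6.14 to 6.39, and their part in the fall of Col25a1 was not tested.

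Among those not called in the mixed group, Col17a1, a membrane collagen of the basal epithelium, had the widest spread. It read 5.42, 6.21 and 7.03 in the labelled controls and 5.93, 5.25 and 5.07 in the labelled mutants (difference -0.80, SE 0.37; limma, Benjamini-Hochberg adjusted p = 0.298), with overlap. The highest array was labelled-control array 3, whose epithelial marker mean of 9.26 compared with 8.57 and 8.62 on the other labelled controls and 8.81 to 8.98 on the labelled mutants. Col18a1, a basement membrane collagen, differed by 0.36 and passed without labelled-control array 3 (0.47; limma adjusted p = 0.0222). Col26a1 and Col23a1 differed by -0.43 and -0.30, with the labelled mutants wholly below, and were not called. Col13a1 differed by 0.10, with the labelled mutants wholly above, as they were for Col18a1, and Col15a1 differed by 0.03 with overlap. Over all genes 11.9% lay wholly below and 13.0% wholly above.

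Chains of the same protein, with Col2a1 against Col1a2 added, were then compared within each array, as the log2 signal of one chain minus that of the other, which cancels any shift common to both. Of 13 such ratios 6 did not overlap between the labels, where 24.9% of all single genes did not. The share over all ratios of genes was not computed. Among the 6 are Col8a1 with Col8a2 and Col2a1 with Col1a2, whose single genes already lay wholly apart in opposite directions. The ratios of these pairs therefore could not overlap, and they add no separate result. The exact two-sided permutation test of 3 against 3 arrays cannot give a p under 0.10. Col1a1 minus Col1a2 was -4.42 ± 0.21 in the labelled controls and -4.37 ± 0.18 in the labelled mutants, a shift of 0.05 (exact permutation p = 0.70, 0.70 after Benjamini-Hochberg adjustment over the 13). Col6a1 minus Col6a3 shifted by 0.39, from -1.72 ± 0.21 to -1.33 ± 0.16, without overlap (exact permutation p = 0.10, 0.217 adjusted). Col8a1 minus Col8a2 shifted by -1.28, from -2.39 ± 0.36 to -3.67 ± 0.08, without overlap (exact permutation p = 0.10, 0.217 adjusted). The ratios of Col9a1 to Col9a2, Col4a5 to Col4a6 and Col4a3 to Col4a4 shifted by 0.83, -0.46 and 0.17, also without overlap (exact permutation p = 0.10, 0.217 adjusted, for each). These ratios compare probe sets, not the make-up of the protein. Since the exact permutation test cannot give a p under 0.10, it could not establish unequal change of the chains. Col4a3 and Col4a4 also read near the low end. The cartilage chain Col2a1 against Col1a2, which do not share a protein, shifted by 1.28, from -3.87 ± 0.20 to -2.59 ± 0.25 (exact permutation p = 0.10, 0.217 adjusted). This shift restates the differences of 0.50 for Col2a1 and -0.78 for Col1a2.

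**Figure D4:**
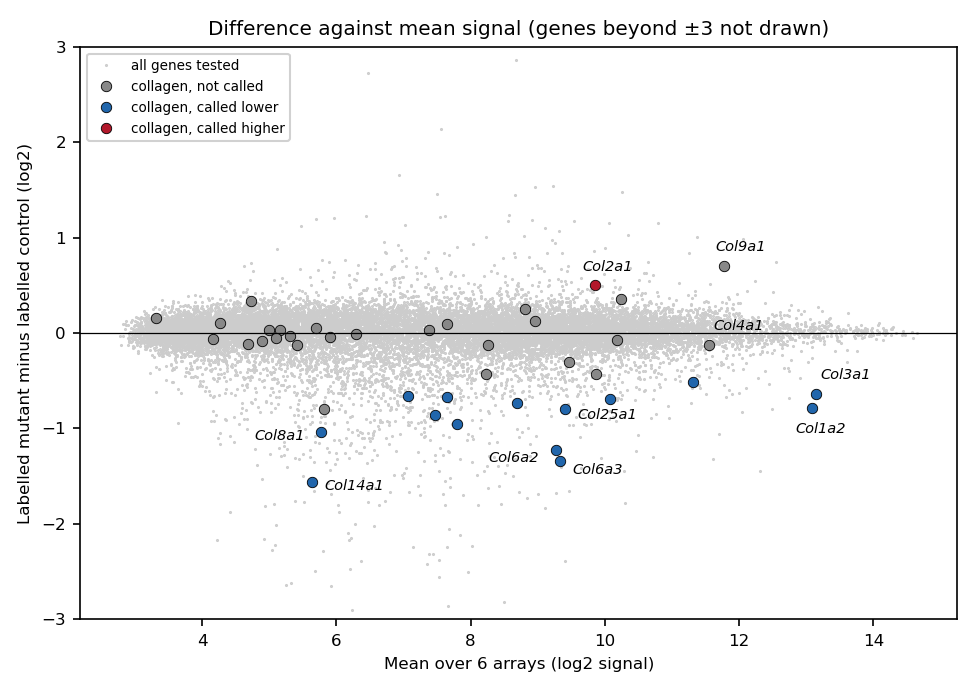
Difference (log2, vertical) against the mean signal over 6 arrays (log2, horizontal) for all genes tested (grey) and the collagen genes (coloured by limma's call). Called collagen genes span signals from 5.64 for Col14a1 to 13.15 for Col3a1, and most collagen genes with dim signals lie near 0.

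Probe sets of 1 gene did not always move alike. Of 27 collagen genes with several probe sets, 16 had the same sign in all and 11 did not. Of the 10 called genes with several, the sign was shared in Col1a1, Col1a2, Col3a1, Col5a1, Col5a2 and Col6a2. The dimmer probe sets gave larger falls for Col3a1 (-0.91 against -0.64), Col1a2 (-0.96 and -0.90 against -0.78), Col5a2 (-0.72 against -0.51) and Col1a1 (-0.89 against -0.74). The brightest probe sets of Col1a2 and Col3a1 had mean signals of 13.09 and 13.15 over the 6 arrays. In Col14a1, Col8a1, Col12a1 and Col25a1 the signs differed: other probe sets gave -0.24 and 0.00 for Col14a1, -0.04 and 0.11 for Col8a1, -0.15 to 0.02 for Col12a1 and 0.20 for Col25a1. All of these were dimmer than the probe set used, and the transcripts each reads were not compared here.

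**Figure D5:**
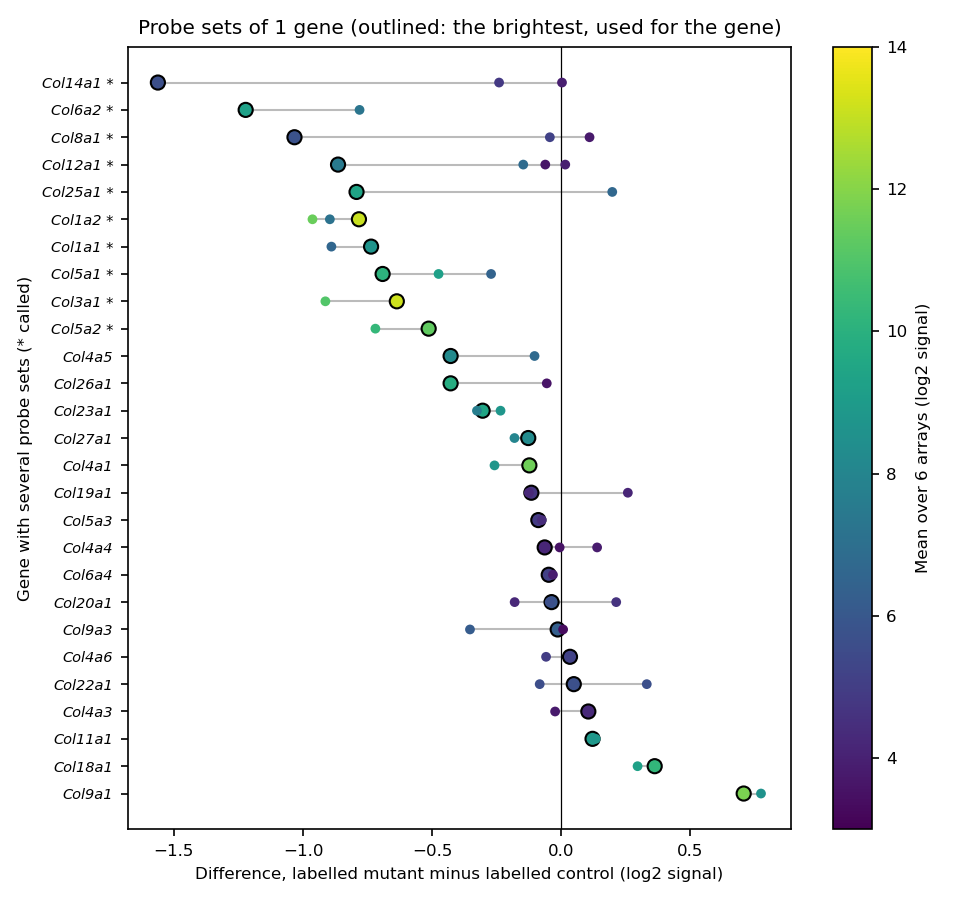
Difference between labels (log2, horizontal) for every probe set of the 27 collagen genes that have several (vertical, called genes with an asterisk); colour gives the mean log2 signal and an outline the brightest probe set, used for the gene. The second probe set of Col25a1 lies at 0.20, on the other side of 0 from the one used.

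Genes that make, process, bind and break down collagen were mostly not called, and the calls made were all lower. Of 46 measured in 4 lists 7 were called (15.2%, against 5.53% of all genes) and the median was -0.10. The difference in share from the collagen genes was not tested. For modification and folding inside the cell 3 of 23 were called lower, with a median of -0.20. P3h3 and P3h2, of the prolyl 3-hydroxylase family, read 8.53 ± 0.10 against 7.90 ± 0.11 and 7.99 ± 0.13 against 7.47 ± 0.13 (limma, Benjamini-Hochberg adjusted p = 0.00568 and 0.0204). P4ha3, a catalytic subunit of prolyl 4-hydroxylase, which stabilises the helix, read 4.96 ± 0.40 against 3.88 ± 0.23 (limma, Benjamini-Hochberg adjusted p = 0.0149). Its labelled-mutant arrays read 4.01, 3.61 and 4.02, under the 25th percentile of 4.33 and so near the low end. Serpinh1, the collagen chaperone, and P4hb differed by -0.22 and -0.12 and were not called.

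Among processing enzymes outside the cell 1 of 8 was called, where 5.53% of all genes were. Bmp1, which trims the end of fibrillar procollagens, read 9.40, 9.37 and 9.36 in the labelled controls and 8.88, 8.86 and 8.81 in the labelled mutants (difference -0.53, SE 0.07; limma, Benjamini-Hochberg adjusted p = 0.00380), while its relative Tll2 and the enhancer Pcolce2 differed by 0.27 and -0.44. Of 9 receptors and uptake genes 1 was called, the receptor kinase Ddr1 (difference -0.54, SE 0.10; limma, Benjamini-Hochberg adjusted p = 0.0147). Itgb1 and Ddr2 differed by -0.29 and -0.22. Of 6 collagenases and gelatinases 2 were called lower, Ctsk (difference -0.89, SE 0.15; limma, Benjamini-Hochberg adjusted p = 0.0119) and Mmp14 (difference -0.62, SE 0.14; adjusted p = 0.0359), and Mmp9 differed by -0.11. P3h3 kept its call under all 14 alternatives, and Bmp1 under all but the mean of its probe sets (difference -0.35, limma, Benjamini-Hochberg adjusted p = 0.0680).

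The other 5 calls depended on single arrays. P3h2 was no longer called without labelled-control array 1 (limma adjusted p = 0.0561) or 3 (0.0544) and labelled-mutant array 2 (0.0749) or 3 (0.0982), and P4ha3 without labelled-mutant array 2 (0.0606). Ddr1 missed the threshold without labelled-mutant array 2 (0.0734) or 3 (0.0564), and Ctsk without labelled-control array 2 (0.0545). Mmp14 missed the threshold without labelled-control array 1 (0.0555) or 2 (0.0607) and labelled-mutant array 1 (0.110), 2 (0.119) or 3 (0.0800), again with limma and Benjamini-Hochberg adjustment. As the mean of their probe sets Ddr1 differed by -0.18 and Mmp14 by -0.22, and neither passed. With the floor at the 20th percentile none of these 5 genes was called.

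Collagen genes that lie side by side in the genome, with no protein-coding gene between them, were either both lower or both not called. Col3a1 and Col5a2 on chromosome 1, chains of type III and type V fibrils, were both lower, as were Col6a1 and Col6a2 on chromosome 10. The pairs Col4a1 and Col4a2, Col4a3 and Col4a4, Col4a5 and Col4a6, Col9a1 and Col19a1, and Col6a4 and Col6a5 had no call in either gene. Of all 42 collagen genes 27 had no call. Within such pairs the differences could be unlike, as in Col9a1 (0.71) and Col19a1 (-0.12) or Col4a5 (-0.43) and Col4a6 (0.03). Both genes of each of these pairs belong to the same class, so that position and class cannot be told apart. With 2 protein-coding genes between them, Col6a1 was lower and Col18a1 (0.36) was not called.

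Of the remaining cell types the arch holds, 1 of 8 markers of smooth muscle and pericytes was called lower. Their mean signal ran from 7.15 to 7.51 in the labelled controls and from 7.16 to 7.37 in the labelled mutants. Members of this list moved apart: Acta2 differed by -1.41 and was called, while Kcnj8 (-0.82) and Rgs5 (1.18) were not. For macrophages 1 of 8 was called lower (6.39 to 6.82 against 6.22 to 6.48), and for red blood cells 1 of 7 (10.35 to 10.90 against 10.18 to 10.44). Of 8 epithelial markers 1 was called higher. Over all genes 4.30% were called lower and 1.23% higher. The part of these cell types in the collagen differences was not tested.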

How the data were processed

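Total RNA of arch 1, with 1 arch taken per embryo per the labels, was measured on 6 Affymetrix arrays, 3 biological replicates per genotype label. The deposited values are 1 signal per probe set and were taken as log2 from their range, since no label states the scale. The sources used here do not name the authors' array software or normalization, but all 6 arrays share the same quantiles. Probe sets were named from the platform annotation: of 45101, 34958 had 1 symbol, 932 several and 9211 none, and the brightest probe set stood for each of 18194 genes. Labelled mutant and labelled control were compared over all genes with limma 3.58.1 in R 4.3.3 (lmFit and eBayes, Benjamini-Hochberg adjustment), without a filter on dim genes, and the fit was tested on simulated data. The number of arrays limits the precision. Every called collagen gene, the 5 with the highest mean signal and the neighbours of called genes with no protein-coding gene between were described in full. In each related list the 3 genes with the largest absolute moderated t were named, and Serpinh1 and P4hb were named besides. The members and lists were chosen with earlier results of these data known. Col21a1, Col6a6 and Col28a1, and of the related lists Fkbp10, Adamts2, Adamts14 and Itga11, were not analysed here. Promoter sequences were taken from RefSeq (GRCm38.p6) by symbol, with Col12a1, Col14a1, Col1a1, Col22a1, Col26a1, Col2a1, Col4a3, Col5a2 and Col9a3 unmatched. Alternatives were the replicate number as a block, renormalization, other probe set summaries, a floor at the 20th percentile, a filter at the 25th, trend and robust settings, and each array left out.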

Additional observations from a re-analysis of the deposited data

How the results depend on the processing

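All 15 called collagen genes kept their sign under all 14 alternatives. Most alternatives could not change it, since they used the same differences or left 1 array out of groups that did not overlap. The mean of probe sets could change it. The calls of 3 genes, Col3a1, Col14a1 and Col25a1, were kept under all 14. As the mean of probe sets the differences of Col14a1, Col25a1, Col8a1 and Col12a1 shrank to -0.60, -0.30, -0.32 and -0.26. Quantile normalization repeated and centring on the array median each gave the same 15 calls. Since the arrays already share the same quantiles, these settings could change little and are no separate check. Leaving out dim genes also gave the same 15 calls, and trend and robust settings gave 14. Titles give both labels the replicate numbers 1 to 3. Deviations of same-numbered arrays from their group means had correlations of -0.21, -0.12 and -0.07, and those of other pairs ran from -0.08 to 0.19. With 3 arrays a label these values cannot decide whether the numbers pair the samples. With the replicate block 11 collagen genes were called, 10 of them lower, and 657 genes in all. As the mean of probe sets 2 collagen genes were called higher, Col9a1 being added, and 4 related genes were called. With every probe set tested on its own 9 were called, 8 lower. With the floor at the 20th percentile 4 were called, 3 lower, with 329 genes in all and 3 related genes; the cause was not tested. Leaving out 1 array gave 4 to 12 collagen calls, 4 to 11 lower and 0 to 3 higher, 435 to 1021 genes in all and 3 to 7 related genes. The count of 0 higher arose in limma without labelled-mutant array 2 or 3, where 5 and 4 collagen genes were higher at an unadjusted p under 0.05. With 3 arrays a label, dim genes such as Col4a4 and Col6a5 give little information on either direction.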
